A study of Homo sapiens with 18 samples.

Results

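The response of human embryonic stem cells (hESCs) to 1 day of reduced oxygen was described across 23536 features, most of them 1 gene each, on 6 of the 18 exon arrays of the series. The 6 arrays are those labelled 24 h. Of these, 3 came from hypoxia (4% oxygen) cultures of H9, HS360 and HS401, 3 established hESC lines, and 3 came from normoxia (21% oxygen) cultures of the same lines. Neither group carried a genetic change or received another agent. Per the study's methods, stock cultures grew on human foreskin fibroblast feeders, and the cells of the experiment were plated on Matrigel in mTeSR1 medium without feeders. The plates for this time point spent their first 2 days in normoxia, and those of the hypoxia group were then moved to a hypoxia workstation with medium balanced to the lower oxygen. Each line gave 1 array per group. The 3 samples of a group are thus 3 different lines, their spread includes the difference between lines, and no line has a repeat culture of its own among these arrays.

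Cells sense oxygen through the HIF pathway. Prolyl hydroxylases of the EGLN family (also called PHDs) use oxygen to mark the HIF alpha subunits, the VHL protein then sends them to degradation, and when oxygen is short the subunits persist, pair with ARNT and bind hypoxia response elements, whose core letters are ACGTG or GCGTG. Known HIF target genes raise glucose uptake and glycolysis, hold pyruvate back from the mitochondria, clear mitochondria and adjust oxygen sensing itself. Stem cells of the early embryo live at low oxygen, and much of their energy comes from glycolysis.

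After 24 h NRN1, PDK1, BNIP3, INSIG2, DDIT4, KDM3A, CFAP96, CT45A5 and PFKFB4 were 2.39-fold to 4.25-fold higher in hypoxia than in normoxia, and the only gene past the adjusted threshold was IGFBP2. In the lower direction 1 named gene, DENND10, passed the study's thresholds. Levels are log2 RMA intensities, differences are hypoxia minus normoxia on that scale, and the values of the 3 lines are given in the order H9, HS360, HS401. Standard errors come from limma's fit to all 18 arrays and are pooled over all times. They are not computed from the 3 differences at 24 h alone. A gene is said to have risen or fallen where it passed the study's thresholds in limma's fit, which ask for more than a 1.5-fold change and for p under 0.01 before adjustment. By this rule 89 features rose (0.378% of the 23536 tested) and 10 fell (0.0425%). After Benjamini-Hochberg adjustment over all features limma called 1 (0.00425%). At an unadjusted p under 0.05 limma found 635 features, 441 of them higher and 194 lower, where 1176.8 would be expected with no difference at all. This count depended on the fit. It was 306 without a block for the line and 1589 with each array's lower quartile as a covariate.

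**Figure D1:**
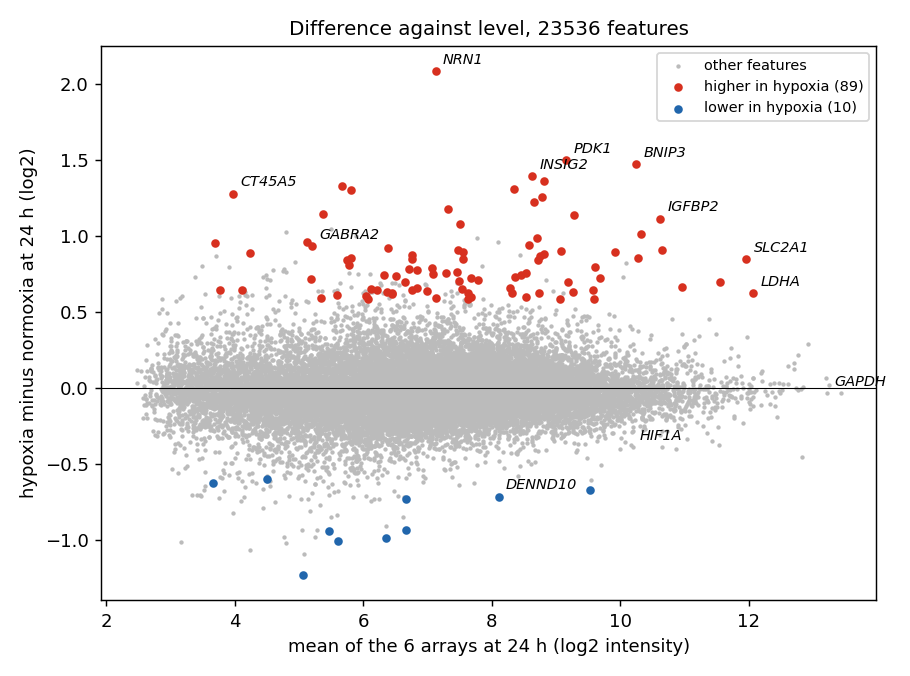
Difference between hypoxia and normoxia at 24 h (vertical axis, log2) against the mean log2 intensity of the 6 arrays (horizontal axis) for 23536 features. The 89 features that rose (red) reach 2.09 for NRN1 and lie over the whole range of levels, while 9 of the 10 that fell (blue) carry no gene name of the usual kind, the exception being DENND10.

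Direct inspection of the arrays showed that they were not alike. The lower quartile lay at 5.64, 6.17 and 5.70 log2 units in hypoxia and at 5.99, 6.04 and 5.64 in normoxia, so that it was low in the hypoxia array alone for H9 and in both arrays for HS401. H9 had the widest differences over all features, with an SD of 0.43, against 0.27 for each of the other lines, and the median of the differences was -0.15, 0.05 and 0.02. Leaving out H9 gave 59 features that rose, leaving out HS360 gave 156 and leaving out HS401 gave 46. A fit that dropped all 5 arrays of the series whose lower quartile was low, which left 1 hypoxia and 2 normoxia arrays at 24 h, gave 196, and 11 of the 89 were among them. That hypoxia array, of HS360, has no replicate there and is assumed to vary like the other groups of the series. All 89 kept a positive difference in each of these fits. With the lower quartile as a covariate 106 features rose, and 81 of the 89 were among them. Beyond such fits the part of this array property in the single differences was not tested.

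Markers of undifferentiated hESCs were present and showed no call. All 10 measured markers lay above the median level of the arrays, and their summed intensity was 14791, 12063 and 15831 in hypoxia and 15098, 13014 and 16986 in normoxia. The sum was thus lower in hypoxia in each line. Of the 10 differences 1 was positive, against 40.6% over all features, and their median was -0.095, against -0.03. The 18 fibroblast markers, genes of the feeder cells of the stock cultures, were also all above the median level. Their sum was 19110, 20826 and 21984 in hypoxia and 18512, 22446 and 24669 in normoxia, with ranges that overlapped, and 0 of the 18 passed the thresholds or had an unadjusted p under 0.05 in limma. In RNA of whole cultures a change in the share of a cell type cannot be told apart from a change in RNA per cell.

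The promoters of the higher genes were searched for the core letters of the hypoxia response element, since the results below turn on these genes. Stretches are shown for only some of the genes that hold them. RefSeq promoters (build GRCh38.p14) were found for 64 of the 78 higher genes named in the platform table and for 15078 of all 20727 genes named there. In the 250 bases before a start, ACGTG stood on either strand in 37 of the 64 genes (57.8%), against 25.6% of all 15078 genes. GCGTG stood in 31 of the 64 (48.4%), against 46.0% of all. The median GC content of the windows was 65.2% for the higher genes and 62.0% for all. Where a gene has several starts, 1 start with a match was enough. The 2 motifs can share their outer G, and CACGTG is a match on both strands. The stretches below are 60 bases before a start, 5′ to 3′ on the strand of the gene, with the matched letters of both strands in capitals (CACGT and CACGC are ACGTG and GCGTG on the opposite strand). A match describes the sequence and does not show binding.
PDK1, chr2:172556030-172556089, plus strand: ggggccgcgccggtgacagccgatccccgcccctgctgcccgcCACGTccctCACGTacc
BNIP3, chr10:131982015-131982074, minus strand: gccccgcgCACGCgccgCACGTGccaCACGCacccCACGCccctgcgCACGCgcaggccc
INSIG2, chr2:118088348-118088407, plus strand: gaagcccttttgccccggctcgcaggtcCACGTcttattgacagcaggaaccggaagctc
DDIT4, chr10:72273771-72273830, plus strand: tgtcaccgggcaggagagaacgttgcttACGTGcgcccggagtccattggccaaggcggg
FAM162A, chr3:122384071-122384130, plus strand: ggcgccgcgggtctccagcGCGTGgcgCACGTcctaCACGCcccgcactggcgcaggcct
PGK1, chrX:78104023-78104082, plus strand: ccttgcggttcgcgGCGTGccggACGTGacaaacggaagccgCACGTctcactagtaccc
LDHA, chr11:18394455-18394514, plus strand: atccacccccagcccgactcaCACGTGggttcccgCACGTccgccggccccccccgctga
KDM3A, chr2:86441311-86441370, plus strand: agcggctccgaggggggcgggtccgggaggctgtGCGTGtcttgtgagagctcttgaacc
Of the other leading genes, PFKFB4 and IGFBP2 held GCGTG and no ACGTG, and NRN1 and EGLN3 held neither string in this window. ALDOC, BHLHE40, HK2, P4HA1 and CFAP96 also held ACGTG and are not shown.

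Genes that steer glucose and pyruvate rose at several steps. Of 23 measured genes of glucose uptake and glycolysis 8 rose and 0 fell. In the list 20 differences were positive, against 40.6% over all features, and 15 were positive in all 3 lines, against 8.74%. The median difference of the list was 0.33, against -0.03 over all features. In 8 of the 23 all 3 hypoxia arrays lay above all 3 normoxia arrays, against 1.63% of all features. SLC2A1, the glucose transporter GLUT1, stood at 12.67, 12.18 and 12.32 in hypoxia and at 11.78, 11.56 and 11.28 in normoxia. The groups did not overlap, and the difference was 0.85 (standard error 0.14, limma adjusted p = 0.242). SLC2A3, the transporter GLUT3, read 12.85, 12.48 and 12.98 in hypoxia and 12.60, 12.51 and 12.83 in normoxia. Its groups overlapped, and its difference of 0.12 (standard error 0.15) passed no threshold.

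Within the glycolytic chain the calls fell on single isoforms of several steps. HK2, an inducible hexokinase, which traps glucose in the cell, rose by 0.80 (standard error 0.17), with 10.22, 9.68 and 10.13 in hypoxia and 9.50, 9.04 and 9.09 in normoxia, whereas HK1, the constitutive hexokinase, had a difference of 0.26 (standard error 0.11) below the fold threshold. The isomerase GPI rose by 0.66 and the aldolase ALDOC by 0.90. PGK1, a phosphoglycerate kinase that makes ATP, read 10.91, 9.91 and 11.66 in hypoxia and 10, 9.17 and 10.26 in normoxia. Each line was higher in hypoxia although HS360 in hypoxia lay below both other lines in normoxia, and the difference was 1.02 (standard error 0.21). LDHA, which turns pyruvate into lactate, rose by 0.63 (standard error 0.13) with separate groups. LDHB, the subunit of lactate dehydrogenase that favours the reverse reaction, had the value -0.18 (standard error 0.18). ALDOA (0.27), TPI1 (0.46), PFKP (0.47), PFKL (0.29), ENO1 (0.29), ENO2 (0.33) and PKM (0.20) were positive and did not reach the fold threshold, while PFKM (-0.05) and GAPDH (-0.03) were near 0. GAPDH, often used as a reference gene, read 13.16, 13.09 and 13.36 in hypoxia and 13.27, 13.12 and 13.32 in normoxia. SLC16A3, the lactate exporter MCT4, was named only through a supplementary list of the study that holds called genes, so it was left out of every count of list members. Its level was 10.76, 9.76 and 10.57 in hypoxia, above 9.71, 9.29 and 9.41 in normoxia, a difference of 0.89 (standard error 0.22).

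The largest calls of the list were the bifunctional enzymes that set fructose 2,6-bisphosphate, the activator of phosphofructokinase. PFKFB4 stood at 9.71, 8.80 and 9.75 in hypoxia and at 8.24, 8.09 and 8.15 in normoxia, a difference of 1.26 (standard error 0.24). PFKFB3, the isoform with the strongest kinase activity, stood at 10.26, 9.29 and 10.02 in hypoxia and at 8.98, 8.63 and 8.54 in normoxia, a difference of 1.14 (standard error 0.22). In both genes the groups were separate and HS360 in hypoxia was the lowest of the 3 hypoxia arrays. The 2 other members of the family, PFKFB1 and PFKFB2, had differences of 0.06 and 0.03.

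PDK1, a kinase that shuts the pyruvate dehydrogenase complex and so keeps pyruvate out of the citric acid cycle, showed an even response over the lines. It read 10.52, 8.98 and 10.24 in hypoxia and 9.08, 7.33 and 8.83 in normoxia. HS360 lay low in both groups, so the groups overlapped, while the differences within lines were 1.44, 1.65 and 1.41. Their mean was 1.5 (standard error 0.26), or 2.83-fold. Without the block for the line the same difference no longer passed the thresholds (limma unadjusted p = 0.0191). The other kinases had the values -0.13 for PDK2, 0.46 for PDK3 and -0.29 for PDK4, and 1 of the 10 measured kinases and phosphatases of this complex rose. No enzyme of the citric acid cycle itself was called among 16 measured. Of these, 15 differences were negative, with a median of -0.10, where 59.1% of all features were negative, 1 had an unadjusted p under 0.05 in limma (SDHC), and 5 were lower in all 3 lines, against 9.65% of all features. OGDH, a subunit of the oxoglutarate dehydrogenase complex, had the value -0.25 (standard error 0.12), and SDHC, a subunit of succinate dehydrogenase, -0.37 (standard error 0.17). The median of 36 complex I subunits was -0.01, and 0 were called, with 1 at p under 0.05 before adjustment (limma).

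Of 14 measured genes of glycogen metabolism 2 rose, GBE1 and PGM1, and 10 differences were positive. Over all features 0.378% rose and 40.6% were positive. By line the list median was 0.27, 0.015 and 0.33, against -0.15, 0.05 and 0.02 over all features. It was -0.04 without the 5 arrays of low lower quartile, where HS360 alone is left in hypoxia. GBE1, the branching enzyme, read 9.38, 8.66 and 9.54 in hypoxia and 8.04, 8.28 and 8.29 in normoxia, a difference of 0.99 (standard error 0.31) that was small in HS360 (0.38). PGM1, which interconverts glucose phosphates, rose by 0.73 with even differences of 0.84, 0.66 and 0.68. PPP1R3C, a subunit that brings phosphatase to glycogen, was 0.96 higher, with 1.23 in H9, 0.07 in HS360 and 1.58 in HS401, and with an unadjusted limma p of 0.0110 it stayed outside the threshold. GYS1, the glycogen synthase of most tissues, had the value 0.31 and PYGL, a phosphorylase that breaks glycogen down, 0.28.

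**Figure D2:**
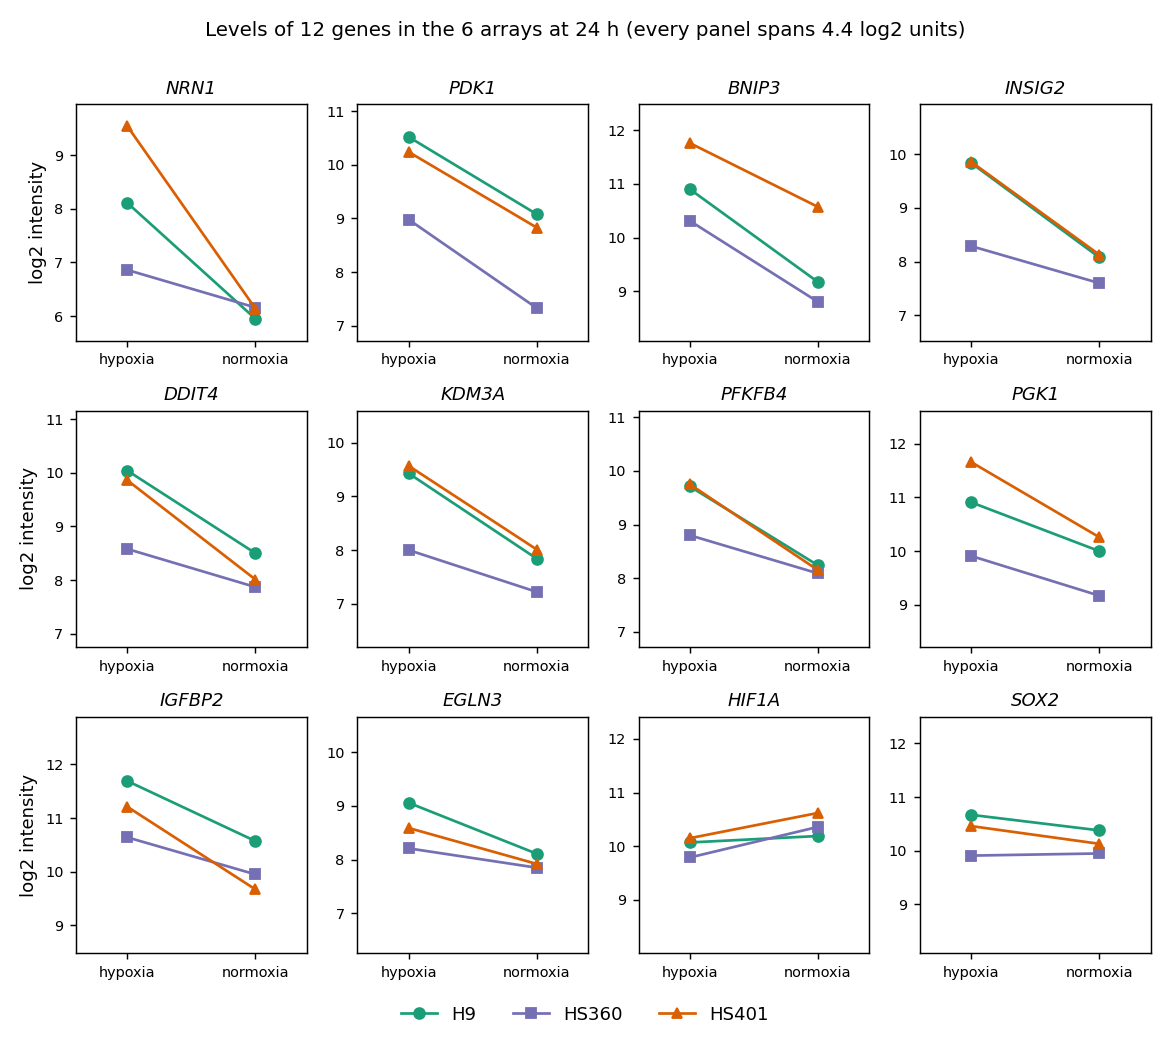
Levels (log2 intensity) of 12 genes in the 6 arrays at 24 h, hypoxia on the left and normoxia on the right of each panel, with 1 line and symbol for each hESC line. All 3 lines slope down to normoxia for the 10 genes that rose, HS360 usually from the lowest point in hypoxia, while HIF1A is lower in hypoxia in each line and SOX2 is nearly level.

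BNIP3 and BNIP3L, outer membrane proteins that mark mitochondria for autophagy, rose and the remaining receptors did not. BNIP3 read 10.90, 10.31 and 11.76 in hypoxia, against 9.17, 8.80 and 10.57 in normoxia. The lines differed as much as the oxygen levels, so the groups overlapped, and the difference was 1.48 (standard error 0.39, limma adjusted p = 0.736). BNIP3L read 10.08, 9.26 and 10.35 in hypoxia, against 9.44, 8.77 and 9.55 in normoxia, a difference of 0.64 (standard error 0.17). FUNDC1, another receptor of this kind, had the value -0.29 and PINK1, a kinase that marks damaged mitochondria, -0.22. FAM162A, a mitochondrial protein induced by hypoxia, rose by 1.22 (standard error 0.29), with 9.63, 8.17 and 9.99 in hypoxia and 8.10, 7.39 and 8.63 in normoxia.

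Of the genes that sense oxygen, 1 of 12 rose. EGLN3, the prolyl hydroxylase PHD3 and itself a HIF target, read 9.06, 8.21 and 8.59 in hypoxia and 8.11, 7.85 and 7.92 in normoxia. The groups were separate, with a difference of 0.66 (standard error 0.18). EGLN1 (PHD2) had the value 0.28, most of it from HS401 (0.71, against 0.11 in H9 and 0.02 in HS360), and EGLN2 (PHD1) had the value -0.04. HIF1A, the gene of the HIF1 alpha subunit, read 10.07, 9.79 and 10.15 in hypoxia and 10.19, 10.36 and 10.62 in normoxia. All hypoxia arrays lay below all normoxia arrays, and the difference of -0.39 (standard error 0.15) did not pass the thresholds. EPAS1, the gene of HIF2 alpha, was -0.30 (standard error 0.17) and negative in each line. Values of ARNT (0.09), VHL (-0.07) and HIF1AN, an asparagine hydroxylase of HIF (0.04), were below their standard errors of 0.14, 0.12 and 0.18. These are transcript levels and do not give the amount of HIF protein.

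In a wider list of 30 known HIF targets 10 rose, 27 differences were positive and 24 were positive in all 3 lines. Over all features these shares were 0.378%, 40.6% and 8.74%. The list shares EGLN1, EGLN3, BNIP3, P4HA1, ENO2, ERO1A, JMJD6, MXI1 and CXCR4 with other lists of the 35, so these counts are not separate from theirs. The median difference was 0.46, the highest of the 35 lists. ARRDC3, an arrestin-like adaptor, read 8.51, 6.63 and 8.66 in hypoxia and 7.11, 6.46 and 7.51 in normoxia, so that its difference of 0.91 came from H9 (1.4) and HS401 (1.15) rather than HS360 (0.17). PPFIA4, a liprin scaffold protein, was more even at 0.95, 0.58 and 1.16. HILPDA, a lipid droplet protein, rose by 0.76, the nuclear receptor RORA by 0.66 and the zinc finger protein RLF by 0.62. Outside the thresholds stayed the stress gene NDRG1 (0.71), ANKRD37, an ankyrin repeat protein (0.57), and CXCR4, a chemokine receptor (0.53). AK4, a mitochondrial adenylate kinase, had the value -0.11. The list was chosen with results of these arrays known, so its direction is not independent evidence.

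Several known hypoxia genes act on chromatin, growth signals and transcription. KDM3A, a demethylase that removes a repressive mark from histone H3, needs oxygen for its reaction and read 9.43, 8.0 and 9.57 in hypoxia and 7.84, 7.22 and 8.01 in normoxia. The difference was 1.31 (standard error 0.25), and the groups overlapped only because HS360 in hypoxia lay just below HS401 in normoxia. KDM7A, another histone demethylase, rose by 0.75 (standard error 0.18). Of 22 measured demethylases of this family 2 rose and 18 were positive, where 40.6% of all features were positive. Their median was 0.10, with the values 0.40 for KDM4C and 0.35 for KDM5B. DDIT4 (REDD1), which restrains mTOR signalling when oxygen or nutrients are short, read 10.04, 8.58 and 9.86 in hypoxia and 8.5, 7.87 and 8.01 in normoxia. Its groups were separate and its difference was 1.37 (standard error 0.29), while its relative DDIT4L (0.27) and the sestrins SESN1 (0.31), SESN2 (0.03) and SESN3 (-0.08), stress proteins that also restrain mTOR, were not called.

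The transcriptional repressors of the circadian network that are known HIF targets both rose. BHLHE41 read 8.15, 7.48 and 8.49 in hypoxia and 7.08, 7.09 and 6.70 in normoxia, a difference of 1.08 (standard error 0.26). BHLHE40 read 9.24, 8.57 and 9.34 in hypoxia and 7.95, 8.31 and 8.06 in normoxia, a difference of 0.94 (standard error 0.23). In both the groups were separate and HS360 showed the smallest difference, 0.39 and 0.26. CIART, a repressor of the clock, rose by 0.79. The other 13 of the 16 measured members of the network were not called.

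INSIG2, an anchor that holds the sterol sensor SCAP in the endoplasmic reticulum, read 9.84, 8.29 and 9.86 in hypoxia and 8.08, 7.60 and 8.13 in normoxia. The groups were separate, with 1.76, 0.69 and 1.73 in the 3 lines and 1.39 (standard error 0.30) in the fit. Its relative INSIG1 had the value 0.33 and was negative in HS360 (-0.18). Of 17 measured genes of sterol sensing and synthesis only INSIG2 was called. In this list 16 were positive, against 40.6% of all features, and the median was 0.16. By line the median was 0.36, 0.01 and 0.26, against -0.15, 0.05 and 0.02 over all features. In all 3 lines 7 were positive, against 8.74% of all features. Without the 5 arrays of low lower quartile, where HS360 alone is left in hypoxia, the list median was -0.01. VLDLR, a lipoprotein receptor known as a HIF target, had the value 0.47 and HMGCS1, an early enzyme of cholesterol synthesis, 0.39.

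Among secreted proteins IGFBP2, a carrier of insulin-like growth factors, had the lowest p of the whole comparison. It read 11.69, 10.64 and 11.21 in hypoxia, against 10.57, 9.95 and 9.67 in normoxia. The groups were separate, the difference was 1.12 (standard error 0.14), and limma's adjusted p was 0.0370, which ranged between 0.00905 and 1 over the alternative fits. NRN1, a membrane-anchored protein that promotes neurite growth, had the largest difference, with an uneven response over the lines. It read 8.11, 6.86 and 9.54 in hypoxia, against 5.95, 6.16 and 6.14 in normoxia. In normoxia the lines lay close together below the median level of 7.18, whereas in hypoxia HS401 lay far above HS360. The differences were 2.16, 0.70 and 3.40, with an SD of 1.35. Their mean was 2.09 (standard error 0.39 from the fit pooled over all times, limma adjusted p = 0.242). ADM, a vasodilator peptide, was 0.83 higher with separate groups but, at an unadjusted limma p of 0.0126, not called. VEGFA, the main angiogenic factor, read 9.16, 8.77 and 9.22 in hypoxia and 8.70, 8.75 and 8.68 in normoxia, which differ by 0.34 (standard error 0.20). STC1 (0.30) and STC2 (0.63), glycoproteins of calcium handling, IGFBP3 (-0.10) and the placental growth factor PGF (-0.28) were not called.

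Of 12 enzymes that modify collagen, P4HA1 rose. This prolyl hydroxylase read 11.21, 9.69 and 11.23 in hypoxia and 9.92, 9.48 and 10.16 in normoxia, a difference of 0.86 (standard error 0.25) that was 0.21 in HS360. PLOD2, a lysyl hydroxylase, was 0.73 higher, with 1.31 in H9, 0.13 in HS360 and 0.76 in HS401, and P4HA2 0.42. The metallothionein MT1X, which binds metal ions, rose by 0.70 and its groups were separate.

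**Figure D3:**
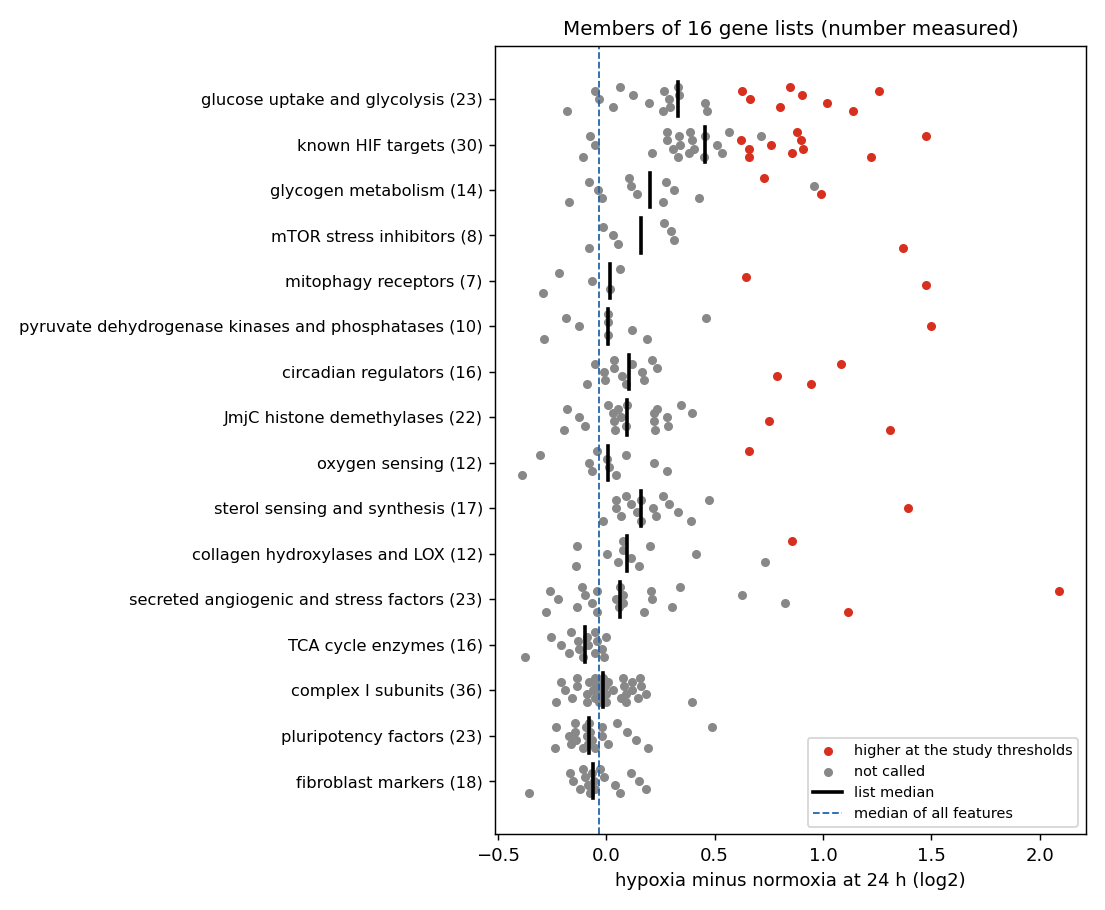
Differences at 24 h (log2, hypoxia minus normoxia) of the members of 16 gene lists, each point a gene, red where it rose at the study's thresholds, with the list median as a black bar and the median of all features (-0.03) as a dashed line. The lists of glycolysis (median 0.33) and known HIF targets (0.46) lie to the right, while the pluripotency factors (-0.08) and fibroblast markers (-0.06) hold no called gene.

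Other genes with large differences belong to no list. CFAP96, a protein of cilia, read 6.91, 5.76 and 6.69 in hypoxia and 5.34, 4.89 and 5.22 in normoxia, a difference of 1.30 (standard error 0.28). ADAMTS20, a secreted metalloprotease, read 8.22, 7.46 and 8.06 in hypoxia and 6.62, 6.65 and 6.94 in normoxia, a difference of 1.18 (standard error 0.23). Both had separate groups. GABRA2, a subunit of the GABA receptor, rose by 0.94 (standard error 0.16) from a low level, with 5.82, 5.28 and 5.91 in hypoxia and 5.05, 4.68 and 4.47 in normoxia. ARLN, a small regulator of the calcium pump SERCA, rose by 0.92. CT45A5, a cancer/testis antigen with near-identical copies, read 4.39, 5.03 and 4.41 in hypoxia and 3.39, 3.63 and 2.97 in normoxia. Its difference of 1.28 was even over the lines, yet all its levels lie far below the median of the arrays and its probes may not tell the copies apart.

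Of the 89 features that rose, 72 carried a usual gene name and 17 were LOC loci, open reading frame names, pseudogenes or snoRNAs. Of the 72 genes 71 were positive in all 3 lines, the exception being the axon guidance receptor ROBO2 (-0.12 in HS360), and 44 had separate groups. Over all features 8.74% were positive in all 3 lines, and 1.63% had all hypoxia arrays above all normoxia arrays. The 72 genes were selected on the mean of these same differences, so both counts are largely set by the selection. Of the 72, 32 were members of a list. Among the others, named after their values were seen, were EDNRB, an endothelin receptor (0.74), NOG, the BMP antagonist noggin (0.64), CCNG2, a cyclin of arrested cells (0.84), PRKAA2, a catalytic subunit of the energy sensor AMPK (0.65), ACSS2, which makes acetyl-CoA from acetate (0.71), and FABP3, a fatty acid carrier (0.60). Of the 89 features, 51 lay above the median level. Most of the features other than named genes took their name only from the study's list of called genes, so that their share cannot be compared with that among all features.

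DENND10, a regulator of endosomes with a near-identical pseudogene, was the 1 named gene that fell. It read 7.27, 8.25 and 7.74 in hypoxia, against 8.13, 8.57 and 8.70 in normoxia. Each line was lower in hypoxia and the groups overlapped, with a difference of -0.71 (standard error 0.17, limma adjusted p = 0.499). Without H9 it was no longer called. The other 9 features that fell were LOC loci, pseudogenes and an olfactory receptor, and 2 of the 10 lay above the median level. NRARP, a feedback inhibitor of NOTCH, had the value -0.64 (standard error 0.24) and, at an unadjusted limma p of 0.0170, was not called. HES1, a NOTCH target, had the value 0.47 (standard error 0.14) in the other direction, short of the fold threshold.

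Pluripotency genes showed no call after 24 h. Of 23 measured factors 17 had negative and 6 positive differences, with a median of -0.08, beside 13906 negative differences (59.1%) among all 23536 features, and MYC alone had an unadjusted p under 0.05 in limma. SOX2 read 10.67, 9.91 and 10.46 in hypoxia and 10.38, 9.95 and 10.13 in normoxia, a difference of 0.19 (standard error 0.17). LIN28A, an RNA-binding protein of undifferentiated cells, read 12, 11.79 and 12.04 in hypoxia and 12.18, 11.77 and 12.07 in normoxia, with a difference of -0.06 (standard error 0.10). POU5F1 (OCT4), which has many pseudogenes, read 7.66, 7.07 and 7.82 in hypoxia and 7.11, 7.48 and 8.66 in normoxia and had different signs in the lines (standard error 0.35). MYC was the only positive member near the thresholds, with 9.19, 9.05 and 9.46 in hypoxia and 8.63, 8.81 and 8.79 in normoxia. Its groups were separate and its difference of 0.49 (standard error 0.15) is 1.4-fold, below the 1.5-fold threshold. No regulator of neuroectoderm (11 measured), mesendoderm and endoderm (13) or trophoblast (11) was called, and the medians of these lists were -0.05, -0.11 and -0.08. By line, only H9 had negative medians (-0.26, -0.43 and -0.49). They were 0.06, 0.10 and 0.18 in HS360 and 0.04, 0.01 and 0.11 in HS401.

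For most features that rose, the difference was smallest in HS360. Over the 89 features that rose, the median difference was 0.48 in HS360, against 0.92 in H9 and 0.99 in HS401, and HS360 had the smallest of the 3 values in 68 of them. PDK1, BNIP3 and CT45A5 were among the leading genes in which HS360 was not the smallest. Each line was left out in turn for the 38 called genes named by rule, a rule that itself takes genes by their value at 24 h. Of these 38, 14 were no longer called without H9, 24 without HS401 and 0 without HS360. The 13 that were called whichever line was left out were NRN1, PDK1, KDM3A, CT45A5, PFKFB4, ADAMTS20, PFKFB3, IGFBP2, PGK1, GABRA2, ALDOC, PPFIA4 and SLC2A1. BNIP3, INSIG2, DDIT4, FAM162A, HK2, LDHA, ARLN, BHLHE41, CFAP96, CIART and GPI lost their call without HS401 alone, and DENND10 without H9 alone. These fits hold fewer arrays. Without HS401 BNIP3 differed by 1.62, INSIG2 by 1.23, CFAP96 by 1.22 and FAM162A by 1.16. Over all 24 genes whose call was lost without HS401, the difference was 0.67 to 1.1 times that with all lines. EGLN3, BHLHE40, GBE1, P4HA1, ARRDC3, BNIP3L, HILPDA, KDM7A, MT1X, PGM1, RLF, RORA and SLC16A3 lost it without either of these lines. Without the 5 arrays of low lower quartile the value of NRN1, then from the HS360 array alone in hypoxia, was 0.69. No difference between the lines was tested, since each line has 1 culture per group.

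**Figure D4:**
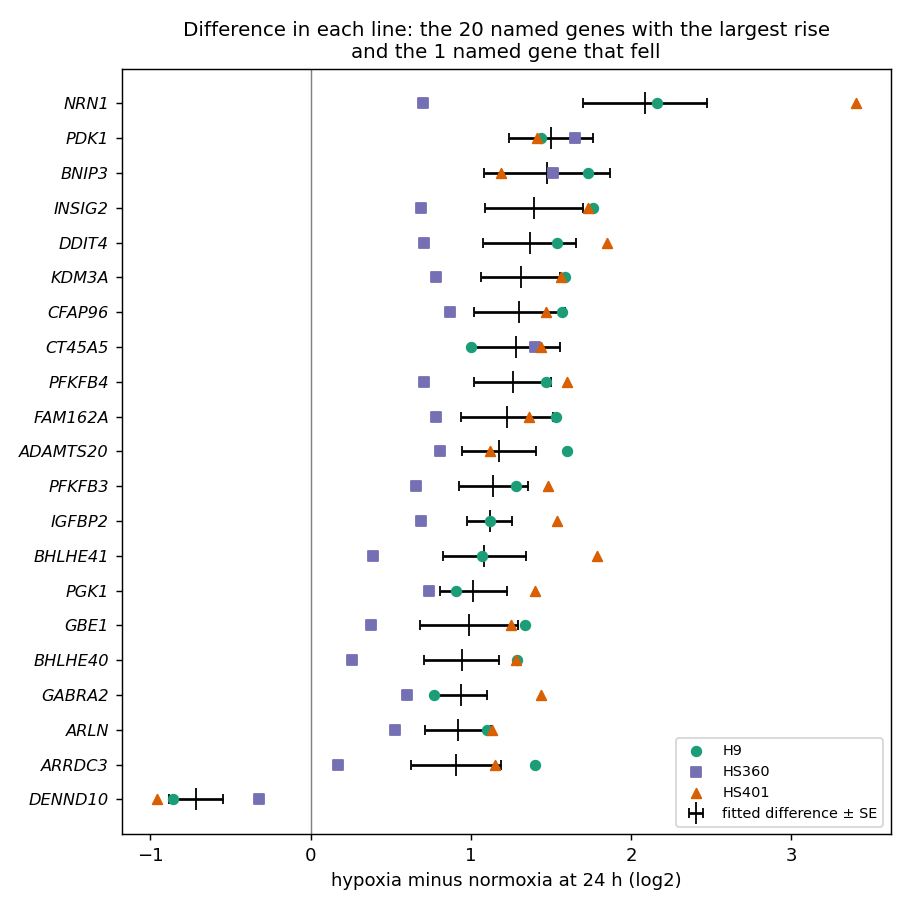
Difference between hypoxia and normoxia at 24 h (log2) in each hESC line for the 20 named genes with the largest rise and the 1 named gene that fell. The fitted difference and its standard error, pooled over all times, are in black. HS360 (square) is the leftmost symbol for most of the genes that rose, and for NRN1 the lines spread between 0.70 and 3.40.

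The same fit gave the differences after 2 h and 7 d, each against normoxia cultures of its own time point from the same lines. Of the 89 features, 13 had also passed the thresholds at 2 h and 20 passed them at 7 d, and 62 passed them at 24 h only. The shares of all features past the thresholds at those times are not given here, so these overlaps are not read as a result. The 62 depend on the cut-off and include genes just short of it at another time, such as PGK1 (0.59 at 7 d). Among the 72 named genes the difference was larger at 24 h than at 2 h in 68 and larger than at 7 d in 61, but they were chosen for their value at 24 h. No feature passed the adjusted p of limma for a difference between these effects, neither against 2 h nor against 7 d. At an unadjusted p under 0.05 there were 181 features (0.769%) against 2 h and 762 (3.24%) against 7 d. The early genes DDIT4 (1.79 at 2 h, 1.37 at 24 h, 1.43 at 7 d), BHLHE40 (1.13, 0.94, 1.20) and HK2 (0.83, 0.80, 0.76) were already past the thresholds at 2 h. In the same order of times, IGFBP2 (0.15, 1.12, 1.02) and SLC16A3 (0.13, 0.89, 0.92) were near 0 at 2 h. The effect on IGFBP2 was larger at 24 h than at 2 h by 0.97 (standard error 0.20), with an unadjusted limma p of 2.74e-04 and an adjusted p of 1. NRN1 (0.71, 2.09, 0.62), BNIP3 (0.84, 1.48, 0.33), LDHA (0.20, 0.63, 0.17) and CT45A5 (0.14, 1.28, 0.04) had their highest value at 24 h. For NRN1 this did not hold in HS360 (0.14, 0.70, 0.86), where the difference was highest at 7 d. For NRN1 the excess of the effect at 24 h was 1.38 over 2 h and 1.47 over 7 d (standard error 0.55 each), both without an adjusted call. MYC (0.04, 0.49, 1.10), NDRG1 (0.13, 0.71, 1.08) and STC1 (-0.02, 0.30, 1.06) had their highest value at 7 d.

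**Figure D5:**
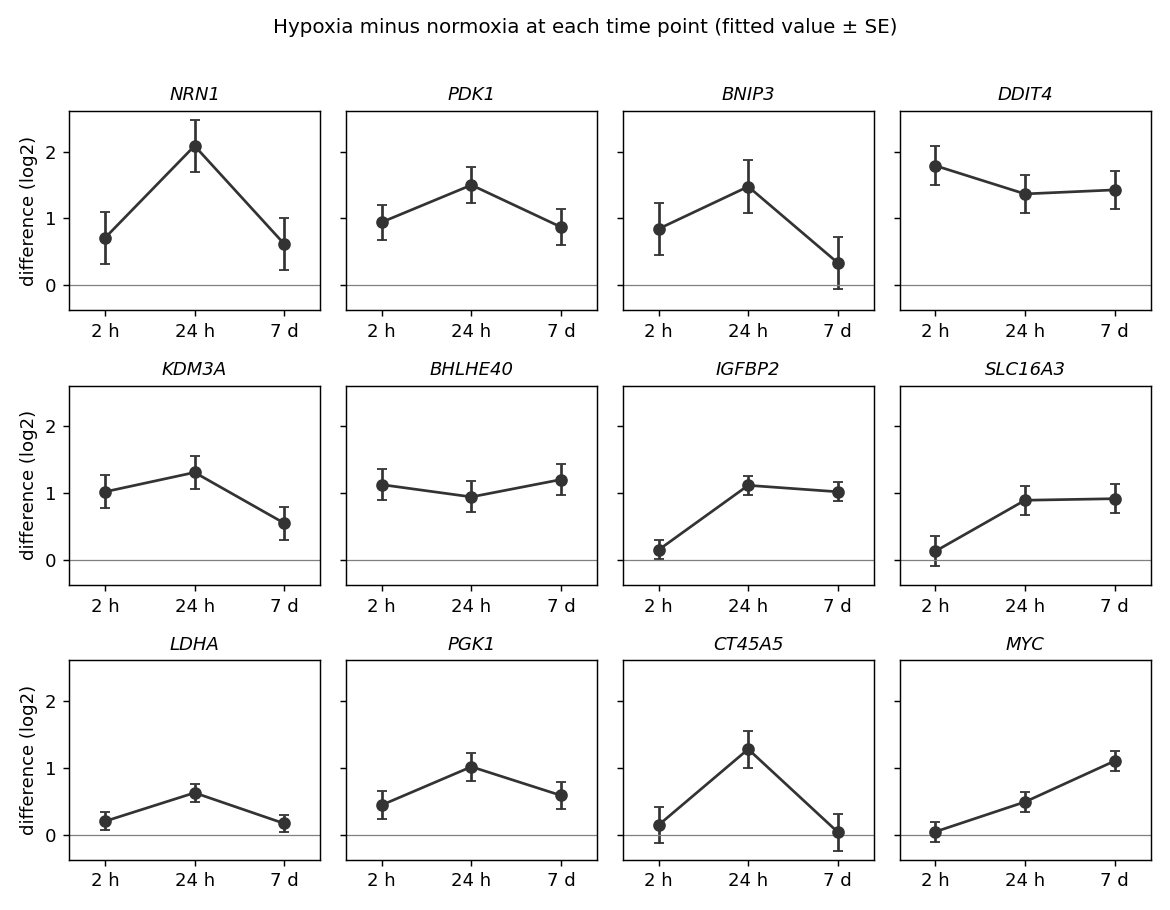
Fitted difference between hypoxia and normoxia (log2, bars give the standard error) at 2 h, 24 h and 7 d for 12 genes. DDIT4 and BHLHE40 are high at each time, IGFBP2 and SLC16A3 are near 0 at 2 h, NRN1, BNIP3, LDHA and CT45A5 are highest at 24 h, and MYC is highest at 7 d.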

How the data were processed

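The deposited values are intensities that the authors made, per their methods, from Affymetrix Human Exon 1.0 ST arrays by RMA (background correction, quantile normalization, summarization) in Chipster with a custom CDF of 1 probe set per Entrez gene. Versions are not given in the sources used here. The intensities are linear, and on the log2 scale used here they lie 0.01 or a multiple of it apart. RMA compresses the differences of dim features. Symbols came from the platform table through the Entrez gene (20727 features) or the study's supplement (52), and 2757 features stayed unnamed. NANOG was not among the named features.

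All 18 arrays were fitted in limma 3.58.1 (R 4.3.3) with 6 group means and a fixed block for the line (10 residual and 4.24 prior degrees of freedom), since each line gave both cultures. Deviations from the group means correlated between the paired 24 h arrays at -0.00534 in H9, 0.762 in HS360 and 0.776 in HS401. P-values are two-sided. Nothing says that cultures of a line were repeated for the arrays. The block removes constant differences between lines from the spread. What remains is the unevenness of the lines between groups, noise of culture and array included, pooled over all 18 arrays. The number of arrays limits the precision. The script was tested on simulated data.

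The gene lists and the rule for named genes (up to 20 genes in each direction with the largest change in all 3 lines, up to 4 called or otherwise 2 members of each list, and core members of a pathway) were chosen with earlier results of these data known. Lists were described by counts and medians. Alternatives were no replicate block, a random block, only the 24 h arrays, other normalization, a level filter, eBayes with trend, the lower quartile as a covariate, each line left out and, chosen after seeing the data, the fit without 5 arrays.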

Additional observations from a re-analysis of the deposited data

Results flagged for a closer look

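In 5 of the 134 genes named or examined by rule, all 3 lines differed one way after 24 h and the other way after 7 d, some by values near 0. The same held for 648 of all features (2.75%). The difference between the times was not significant after adjustment in any of them. The value at 24 h exceeded that at 7 d by 1.09 for PAX6 (0.30, 0.36 and 0.10 at 24 h in H9, HS360 and HS401, and -1.57, -0.24 and -0.71 at 7 d), a neuroectoderm regulator, by 0.83 for CCNE2, a cyclin of the G1/S transition, and by 0.68 for the heat shock cochaperone DNAJB1. PDK4, a pyruvate dehydrogenase kinase, differed by -0.43 and SOD2, the mitochondrial superoxide dismutase, by -0.28. None of these genes was called at 24 h.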

How the results depend on the processing

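No called gene named in the text changed direction in any alternative, but calls and sizes did change. Without the replicate block 14 of the 38 called genes named by rule were no longer called. Without the 5 arrays of low lower quartile the median of the known HIF targets was 0.23, against 0.46 as reported. That of glucose uptake and glycolysis was 0.21, against 0.33. Without the replicate block for the line 49 features rose and 6 fell, and 48 of the 49 were among the 89. With the line as a random block no feature passed the adjusted p (0 called). The 24 h arrays alone gave 28 lower and 0 adjusted calls, a second quantile normalization 16 lower, and centring 0 adjusted calls. Features above the median level gave 50 higher and 2 lower. With the lower quartile as a covariate 106 features rose, 19 fell and 3 passed the adjusted p (FAM162A, IGFBP2 and KDM3A). Without the 5 arrays, where the lone 24 h hypoxia array is assumed to vary like the other groups, 196 rose, 56 fell and 0 passed the adjusted p. Leaving out each line in turn gave 46 to 156 higher, 12 to 75 lower and 0 adjusted calls, so the adjusted call of IGFBP2 was lost each time (adjusted p 0.0641 to 1). The adjusted p of IGFBP2 was 0.107 after centring, 0.256 with the random block and 1 without the block. No alternative with arrays of the other times gave an adjusted difference from 2 h or 7 d. The causes of these changes were not tested. Signal over background was not used here, and dim features such as CT45A5 are limited by it.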
